A study of Mus musculus with 10 samples.

Results

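The response of mouse microglia to lipopolysaccharide (LPS), a bacterial cell wall component, was compared between primary microglia and the BV2 line, in cells that all received EPZ-6438. The measure was the LPS response in primary microglia minus the LPS response in BV2 cells, taken for each gene on the log2 scale, and it is called the difference below. A difference above 0 means that LPS moved the gene further up, or less far down, in primary microglia. All 10 of the 10 RNA-seq libraries entered the fit, because the comparison needs each of the 4 groups, and 11626 of 24411 genes passed the filter on low counts. EPZ-6438 is a small-molecule inhibitor of EZH2, the catalytic subunit of Polycomb repressive complex 2, and the series asked whether it protects newborn microglia from activation.

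The 4 groups were primary microglia with 10 uM EPZ-6438 (n = 3), primary microglia with 10 uM EPZ-6438 and 10 ng/ml LPS (n = 3), BV2 cells with 10 uM EPZ-6438 (n = 2) and BV2 cells with 10 uM EPZ-6438 and 10 ng/ml LPS (n = 2), with 4 h of treatment. Primary microglia came from the pooled whole brains of 12 mice of the ICR strain aged 3 days and were shaken off mixed glial cultures. BV2 is an immortalised mouse microglial line and was grown in another medium, so cell type, mouse source and culture conditions cannot be told apart. No group lacked the inhibitor, so each response is a response under EPZ-6438 and none measures what the inhibitor did. Whether the replicates were separate cultures is not stated, so a p-value here sets a change against the spread of these libraries, and that spread may be technical.

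LPS is sensed by the receptor TLR4 with its partners CD14 and MD-2. One arm of the signal runs through the adaptor MyD88 to the transcription factor NF-kB and switches on cytokine and chemokine genes. The other arm runs through the adaptor TRIF to interferon beta, which acts back on the cell through its receptor, the JAK kinases and STAT factors, and switches on the interferon-stimulated genes that defend against viruses. EZH2 methylates histone H3 at lysine 27, a mark of silenced genes.

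Gene counts ran from 2750988 to 3684012 per library. Of these, 15.7% and 16.0% fell on Rn45s, the precursor of ribosomal RNA, in primary replicates 2 and 3 with LPS, 40.9% to 51.7% in the other 4 primary libraries and 27% to 30.1% in BV2 libraries. Summed levels of 15 microglia and macrophage markers were 2731 to 2978 CPM (counts per 1e6 counts, on library sizes scaled by the trimmed mean of M values, TMM) in primary microglia without LPS and 1961 to 2022 CPM in BV2 cells without LPS. Sall1, a transcription factor that defines microglia, had 0 counts in all 4 BV2 libraries. Summed astrocyte markers were 1161 to 1815 CPM in primary microglia without LPS and 1139 to 1914 CPM with LPS, against 64.6 to 73.1 CPM in BV2 cells, where 11 of 14 had 0 counts. All 7 neuron and all 10 fibroblast markers had 0 counts in BV2 cells, and fibroblast markers summed to 342 to 679 CPM in primary microglia without LPS and 214 to 525 CPM with LPS. A difference of responses could not be measured for 10 of the 12 tested astrocyte markers, all 3 neuron and all 10 fibroblast markers, which had at most 3 counts in each BV2 group. Oligodendrocyte lineage markers summed to 224 to 232 CPM in primary microglia without LPS and 202 to 249.8 CPM with LPS, against 25.0 to 28.3 CPM in BV2 cells, and 8 of 9 could not be measured there. The ninth, Cnp, which myelinating cells express, was called above 0 (difference 0.82 ± 0.24, adjusted p = 0.0214). It was not called without primary replicate 1 (adjusted p = 0.111) or 3 (0.0851) without LPS, primary replicate 2 with LPS (0.0546), BV2 replicate 1 (0.0715) or 2 (0.0851) without LPS, or BV2 replicate 2 with LPS (0.061). The part of these other cells in the results was not tested, and in bulk RNA fewer cells of a type and less RNA per cell cannot be told apart.

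The promoters below were chosen because they hold the binding-site letters of the 2 arms, in genes that the results turn on. Isg15, Ifit3 and Cxcl10 belong to the interferon arm and had a larger response in primary microglia. Nfkbia and Cxcl2 are NF-kB targets: the difference of Nfkbia was called and that of Cxcl2 was not. Each line gives the 250 bases before the start of the RefSeq transcript (build GRCm38.p6), 5′ to 3′ on the gene's strand, with 2 kinds of match in capitals. The core of the interferon-stimulated response element (ISRE) was searched as GAAA, any 2 bases and GAAA again, and the core of the NF-kB site as GGG, any 3 bases and TTCC. Both strands were searched, so a reverse match begins with TTTC or GGAA, and overlapping matches were counted separately.
Isg15 (chr4:156200819-156201068, minus strand): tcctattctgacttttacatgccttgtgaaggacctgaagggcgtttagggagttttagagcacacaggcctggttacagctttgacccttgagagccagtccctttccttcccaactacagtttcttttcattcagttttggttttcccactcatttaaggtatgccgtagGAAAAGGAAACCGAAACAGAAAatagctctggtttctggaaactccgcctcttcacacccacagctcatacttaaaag
Ifit3 (chr19:34583279-34583528, plus strand): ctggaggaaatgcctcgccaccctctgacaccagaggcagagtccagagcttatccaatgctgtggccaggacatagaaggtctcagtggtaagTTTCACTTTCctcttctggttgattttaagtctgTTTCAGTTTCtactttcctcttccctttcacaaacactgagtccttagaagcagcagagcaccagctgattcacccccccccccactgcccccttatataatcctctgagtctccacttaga
Cxcl10 (chr5:92348890-92349139, minus strand): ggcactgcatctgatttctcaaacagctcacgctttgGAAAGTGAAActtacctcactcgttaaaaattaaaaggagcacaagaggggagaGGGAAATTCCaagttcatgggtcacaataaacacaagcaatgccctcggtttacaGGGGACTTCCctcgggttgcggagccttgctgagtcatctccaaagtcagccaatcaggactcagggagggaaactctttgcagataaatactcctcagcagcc
Nfkbia (chr12:55492648-55492897, minus strand): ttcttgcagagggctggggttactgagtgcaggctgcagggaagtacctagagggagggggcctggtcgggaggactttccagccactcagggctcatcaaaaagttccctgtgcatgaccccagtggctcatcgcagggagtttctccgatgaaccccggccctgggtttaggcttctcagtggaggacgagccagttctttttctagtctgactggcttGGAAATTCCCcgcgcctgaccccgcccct
Cxcl2 (chr5:90903649-90903898, plus strand): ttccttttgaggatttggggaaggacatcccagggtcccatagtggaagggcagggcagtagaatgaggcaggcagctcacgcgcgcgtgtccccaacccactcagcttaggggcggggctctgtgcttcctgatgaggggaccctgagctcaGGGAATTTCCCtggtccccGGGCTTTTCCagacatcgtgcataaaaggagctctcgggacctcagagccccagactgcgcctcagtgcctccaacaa

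In Isg15 the capitals hold 3 overlapping ISRE matches, and in Ifit3 they hold 2. Cxcl10 held 1 ISRE match and 2 NF-kB matches, Nfkbia 1 NF-kB match and Cxcl2 3 NF-kB matches. RefSeq gave 11762 such windows for 9153 of the 11626 tested genes, and 2.86% of all windows held the ISRE letters. Other genes named below held none: the windows of Irf7, Cmpk2, Ifi47, Ifit2, Oasl1, Tap1 and Irf1 had 0 ISRE matches, and those of Tnf, Sod2 and Icam1 had 0 NF-kB matches. Among genes that rose in primary microglia with a called difference of at least 3 on the log2 scale the share was 21.5% (28 of 130 windows, 105 of 136 genes matched), and among all genes that rose more in primary microglia it was 6.51%. Among genes that rose more in BV2 cells it was 4.76% (2 of 42 windows). The NF-kB letters stood in 5.14% of all windows, in 9.23% of those of genes with a difference of at least 3, in 7.59% of those that rose more in primary microglia and in 11.9% (5 of 42) of those that rose more in BV2 cells. The AP-1 letters TGANTCA stood in 4.37% of all windows and in 15.4% of those of genes with a difference of at least 3, and the letters TGACGTCA of the cAMP response element in 2.59% of all windows, in 2.27% of those of genes that rose more in primary microglia and in 0 of the 130 windows of genes with a difference of at least 3. A match is a description of letters and not a measured site.

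More genes were called as responding to LPS in primary microglia than in BV2 cells, and most called differences were rises in primary microglia. A gene was called at a Benjamini-Hochberg adjusted p under 0.05 over all tested genes, from edgeR's quasi-likelihood test. In the fit of 4 groups, 2395 genes rose with LPS in primary microglia (20.6% of tested genes) and 1997 fell (17.2%), while 369 rose (3.17%) and 193 fell (1.66%) in BV2 cells. The difference itself was called for 1418 genes (12.2%). It was above 0 for 1006 of them (8.65%) and below 0 for 412 (3.54%), and it was at least 1 in size for 700 and 311 of these, 1011 in all (8.70%). Because the groups differ in number, 3 libraries against 2, fewer calls within BV2 cells do not by themselves show a smaller response, and the statements below rest on the difference. Counts of called list members below stand against these shares of all tested genes, 8.65% above 0 and 3.54% below 0.

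Most of the called differences were rises in primary microglia without a called response in BV2 cells, 786 genes. Another 166 genes rose in both and rose more in primary microglia. Genes that fell in primary microglia without a called response in BV2 cells numbered 323, and 43 fell in both and fell further in primary microglia. Of the 321 genes that rose in both, the difference was not called for 147, and of the 141 that fell in both it was not called for 97. Larger rises in BV2 cells were few: 25 genes without a called primary response, 8 that rose in both and 7 that fell in primary microglia. Across 9812 genes with more than 3 counts in each group, the 2 responses correlated at 0.58 (Pearson) and 0.44 (Spearman), where genes are not independent replicates and share the libraries. The genes that rose in BV2 cells had a median log2 fold change of 1.38 there and 2.18 in primary microglia.

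**Figure D1:**
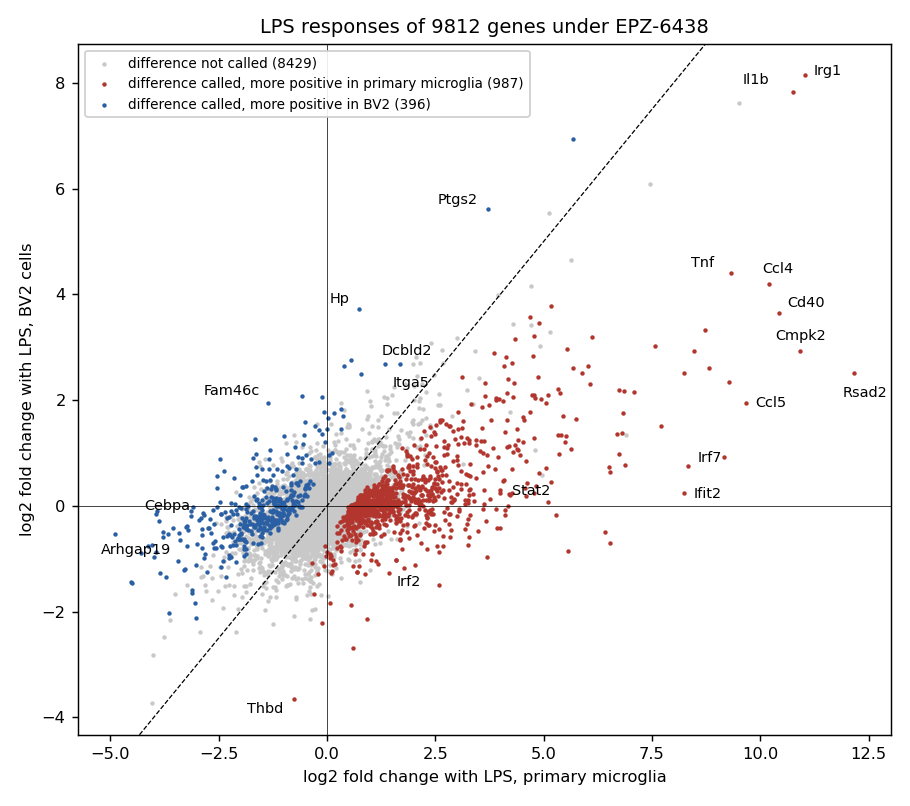
Log2 fold change with LPS in primary microglia (horizontal) against BV2 cells (vertical) for 9812 genes with more than 3 counts in each group; the dashed line marks equal responses, red points are genes with a called difference above 0, blue points below 0 and grey points not called. Most coloured points lie along the horizontal axis, where BV2 cells responded little, and Ptgs2 and Hp stand above the dashed line.

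How the called genes split between the directions depended on the scaling. TMM put 70.9% of the 1418 called differences above 0. Upper-quartile scaling put 52.0% of 1391 there (723 above and 668 below), and leaving out abundant structural RNAs before scaling put 60.1% of 1344 there (808 and 536). The median difference over all tested genes was 0.04 with TMM and -0.15 and -0.07 with these 2 scalings, and it was 0.16 with library size only, where 551 of 701 called differences lay above 0. Without primary replicate 1 with LPS, which stood furthest from its group, 1050 of 1923 called differences lay above 0 (54.6%) and 873 below. Without BV2 replicate 1 or 2 without LPS, 271 and 272 lay below 0. Without primary replicates 2 and 3 with LPS, the 2 libraries of low Rn45s share, 1259 genes were called and 1043 of these were among the 1418. Each named gene with a called difference kept its direction under every scaling tried, but 39 of them were no longer called with library size only and 8 with upper-quartile scaling.

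A difference of fold changes can come with a different starting level, a different level after LPS or both. Of the 967 genes that were called above 0 and rose in primary microglia, 489 stood lower in primary microglia than in BV2 cells without LPS (32.5% of all tested genes did). Of these 489, 186 stood higher than in BV2 cells once LPS was given. Another 169 still stood lower and 134 did not pass the test in either direction. With LPS 30.7% of all tested genes stood lower, whatever their start. Of the 967, a further 230 genes showed no called difference of level without LPS and stood higher in primary microglia with LPS, and 248 stood higher in both states. Among tested genes whose difference of responses was not called, 2776 stood lower in both states and 3759 higher in both. Of that kind 406 were lower without LPS and not called with LPS, and 0 turned from lower to higher. That 0 is no comparison for the 186, because the difference is the gap with LPS minus the gap without. A gene with both gaps called and of opposite sign nearly always has a called difference. With LPS, 664 of the 967 stood higher in primary microglia (43.1% of all tested genes did). These shares use the same libraries as the difference and are a description. On the scale of CPM gained, 15 of the 967 genes rose further in BV2 cells. Dusp2, a phosphatase that acts on MAP kinases, was one of them: it rose from 1.27 ± 0.841 to 53.7 ± 10.7 CPM in primary microglia (mean ± SD, n = 3) and from 15.9 ± 2.24 to 69.7 ± 8.40 CPM in BV2 cells (n = 2), while its difference of log2 fold changes was 3.25 ± 0.44 (± standard error, adjusted p = 2.96e-06).

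**Figure D2:**
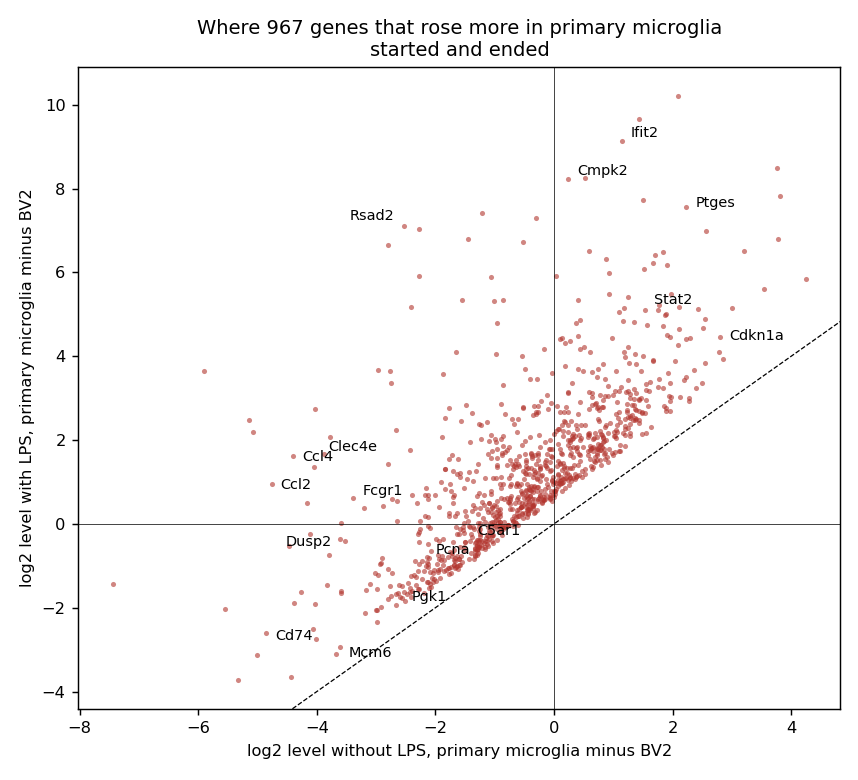
Log2 level in primary microglia minus BV2 cells without LPS (horizontal) and with LPS (vertical) for the 967 genes that rose more in primary microglia; each point is a gene and the dashed line marks no change of the gap. Points at upper left, such as Ccl2, Ccl4 and Fcgr1, began lower in primary microglia and ended higher, while Cd74 at lower left stayed below the BV2 level.

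All gene positions given here are from GENCODE's annotation of GRCm38, while the promoter windows above are from RefSeq. Ccl4, a chemokine that attracts monocytes and T cells (chromosome 11, 83662584 to 83664683), is an example of a gene that began lower. It stood at 1.49, 1.22 and 2.46 CPM in primary microglia without LPS and at 1904, 2193 and 2276 CPM with LPS. The BV2 libraries stood at 37.3 and 38.2 CPM without LPS and at 658 and 724 CPM with LPS. Without LPS every BV2 library stood above every primary library, and with LPS the order was turned. The difference was 6.02 ± 0.28 (adjusted p = 6.42e-15). Cd74, the invariant chain of MHC class II, rose by 3.03 ± 0.36 in primary microglia and by 0.77 ± 0.20 in BV2 cells on the log2 scale, yet its level went from 1.26 ± 0.460 to 10.5 ± 2.24 CPM in primary microglia and from 37.6 ± 0.410 to 64.4 ± 9.26 CPM in BV2 cells. Its larger fold change thus went with the smaller gain in CPM.

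The receptor end of the pathway differed in a few genes. Of 20 tested genes of the TLR4 complex and its signalling, 4 were called above 0 and 0 below (20% called, against 12.2% of all tested genes). The median difference was 0.26 (0.04 over all tested genes). Cd14, the co-receptor that hands LPS to TLR4, stood at 263, 261 and 323 CPM in primary microglia without LPS and 2691, 3298 and 3140.3 CPM with LPS, and at 489 and 456 CPM and 1077 and 1026 CPM in BV2 cells. The groups did not overlap: BV2 cells were higher without LPS and primary microglia with LPS. The difference was 2.28 ± 0.18 (adjusted p = 1.67e-10). Myd88, the adaptor of the NF-kB arm, rose from 22 ± 1.44 to 211 ± 27.7 CPM in primary microglia and from 59.7 ± 7.96 to 89.1 ± 7.99 CPM in BV2 cells, a difference of 2.69 ± 0.22 (adjusted p = 5.16e-10).

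The receptor itself and the TRIF arm's adaptors did not pass the test for the difference. Tlr4 stood at 49.3, 32.2 and 50.5 CPM in primary microglia without LPS and at 31.6, 40.4 and 48.4 CPM with LPS, and in BV2 cells at 28 and 45.8 CPM and 16.1 and 22.5 CPM. Its difference was 0.79 with a 95% interval of 0.04 to 1.54 (adjusted p = 0.19). The intervals were -0.44 to 2.23 for Ly96, which encodes MD-2, -1.58 to 0.10 for Ticam1, which encodes TRIF, and -1.23 to 0.35 for Ticam2, its bridging adaptor. Intervals of this width do not show that the responses were alike.

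Among 14 other Toll-like and cytosolic receptors, 8 were called above 0 and 2 below. Tlr3, which senses double-stranded RNA, stood at 10.1, 11.0 and 8.42 CPM without LPS and 129.7, 116 and 134 CPM with LPS in primary microglia, and at 3.73 and 1.65 CPM and 1.34 and 1.40 CPM in BV2 cells. It rose in primary microglia and its BV2 response was not called; the difference was 4.65 ± 0.56 (adjusted p = 4.98e-07). Tlr2, which senses bacterial lipoproteins, rose in both, by 3.96 ± 0.12 and 2.01 ± 0.14, and the difference was 1.95 ± 0.18. Tlr13, a sensor of bacterial ribosomal RNA, fell in both, with log2 fold changes of -1.91 ± 0.13 and -0.65 ± 0.15, and fell further in primary microglia (difference -1.27 ± 0.20, adjusted p = 2.43e-05). Tlr7, which senses single-stranded RNA, stood at 97.9, 105 and 119 CPM and then 218, 214 and 292 CPM in primary microglia and at 188 and 213 CPM and then 134 and 183 CPM in BV2 cells, with a difference of 1.51 ± 0.22. It rose in primary microglia, and every BV2 library with LPS lay below every BV2 library without it, although that response was not called.

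Most NF-kB genes rose in both cell types, and every called difference among them lay above 0. All 11 tested NF-kB subunits and inhibitors rose in primary microglia and 7 rose in BV2 cells, with 5 called above 0 for the difference, 0 below and a median of 0.95. Of 21 feedback and survival genes of the pathway 20 rose in primary microglia and 15 in BV2 cells, with 11 called above 0, 0 below and a median of 1.33. Nfkbia, the inhibitor IkB-alpha that NF-kB itself induces (chromosome 12, 55489410 to 55492647), stood at 29.9, 27.3 and 27.7 CPM without LPS and at 479.8, 553 and 515 CPM with LPS in primary microglia. The BV2 level went from 36.1 and 32.3 CPM to 192 and 170.0 CPM. BV2 libraries lay slightly above primary libraries without LPS and far below them with LPS, and the difference was 1.78 ± 0.20 (adjusted p = 1.7e-07).

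Tnfaip3, the ubiquitin-editing enzyme A20 that shuts the pathway down, rose from 21.7 ± 4.78 to 1011 ± 21.1 CPM in primary microglia and from 20.3 ± 2.11 to 160.2 ± 28.2 CPM in BV2 cells (difference 2.56 ± 0.24, adjusted p = 5.97e-09). Sod2, the mitochondrial superoxide dismutase, had a difference of 2.53 ± 0.19, and Icam1, an adhesion molecule, one of 3.37 ± 0.24. Nfkb2, the subunit of the slower non-canonical pathway, rose from 35.4 ± 1.19 to 471 ± 48.0 CPM and from 24.5 ± 2.59 to 91.6 ± 9.16 CPM (difference 1.83 ± 0.22). Ikbke, a kinase related to those that free NF-kB and activate IRF3, stood at 22.8, 22.4 and 21.1 CPM and then 298, 363 and 327 CPM in primary microglia and at 58.8 and 41.9 CPM and then 202 and 205 CPM in BV2 cells, with a difference of 1.89 ± 0.22 (adjusted p = 2.41e-07). Each of these 5 genes rose in both cell types.

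Of 15 inhibitors of MAP kinase and cytokine signalling 4 were called above 0 and 1 below (33.3% called, against 12.2% of all tested genes). Spred1, an inhibitor of the Ras pathway, rose in primary microglia with a BV2 log2 fold change of 0.08 ± 0.17 that was not called (difference 1.96 ± 0.22, adjusted p = 1.72e-07). Dusp4, a phosphatase of nuclear MAP kinases, rose in both and differed by 1.63 ± 0.30. Dusp1, the phosphatase best known for switching off p38, stood at 19.8, 23.7 and 22.1 CPM and then 19.1, 22.3 and 25.7 CPM in primary microglia and at 5.60 and 6.26 CPM and then 8.37 and 8.71 CPM in BV2 cells. Neither response nor the difference was called (difference -0.48, 95% interval -1.24 to 0.28, adjusted p = 0.515).

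Interferon beta RNA appeared with LPS in primary microglia and was at or near 0 in BV2 cells, and the antiviral genes rose far more in primary microglia. Ifnb1, interferon beta, had 0 counts in all 3 primary libraries without LPS and stood at 10.9, 12.1 and 11.3 CPM with LPS, at least 30.4-fold higher against a floor of 3 counts over the group. In BV2 cells it had 0 counts without LPS and a single count in 1 of the 2 libraries with LPS, so no fold can be given there. The difference was not called (adjusted p = 1). With LPS the level of Ifnb1 was higher in primary microglia (adjusted p = 2.27e-08).

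Of the 10 tested interferon ligands, receptors and kinases 4 were called above 0 and 0 below. Jak2, a kinase of cytokine receptors, stood at 40.0, 47.8 and 56.9 CPM without LPS and 719, 752 and 817 CPM with LPS in primary microglia, and at 19.0 and 24.1 CPM and 22.1 and 30.6 CPM in BV2 cells. The BV2 groups overlapped and the primary groups did not, and the difference was 3.68 ± 0.26 (adjusted p = 1.27e-11). Ifnar1, a chain of the receptor for interferon beta, differed by 0.98 ± 0.18.

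Of 13 interferon regulatory factors and STAT factors, 8 were called above 0 and 0 below, with a median difference of 2.20. Stat2, which carries the signal of the interferon receptor (chromosome 10, 128270559 to 128292849), stood at 14.9, 18.8 and 17.9 CPM without LPS and 341, 269 and 250 CPM with LPS in primary microglia. BV2 levels were 5.60 and 6.26 CPM without LPS and 7.03 and 9.27 CPM with LPS, and its BV2 response was not called (log2 fold change 0.47 ± 0.31, adjusted p = 0.643). Primary libraries stood above BV2 libraries in both states, far more so with LPS, and the difference was 3.58 ± 0.37 (adjusted p = 3.15e-08).

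Irf7, the factor that amplifies interferon genes (chromosome 7, 141262706 to 141266481), stood at 2.24, 2.04 and 0.351 CPM without LPS and 459, 536 and 508 CPM with LPS in primary microglia. In BV2 cells the values were 9.02 and 7.25 CPM and 14.1 and 13.5 CPM. The BV2 response was not called (adjusted p = 0.13). BV2 cells were the higher without LPS and primary microglia the higher with LPS, with a difference of 7.59 ± 0.42 (adjusted p = 1.74e-13). Irf1, an early target of both arms, rose in both, by 5.45 ± 0.16 and 1.70 ± 0.19, and the difference was 3.75 ± 0.25. Irf8, a lineage factor of microglia, did not pass the test (difference 0.34, 95% interval -0.12 to 0.80).

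All 54 tested antiviral interferon-stimulated genes rose in primary microglia and 20 rose in BV2 cells. The difference was above 0 and called for 43 of the 54 and below 0 for none, where 8.65% of all tested genes were called above 0, and its median was 4.48. Of these genes 4 had at most 3 counts in each BV2 group, and the median over the other 50, with genes at 0 in a group at their bound, was 4.39. Many of the genes belong to families of near-identical copies (Ifit, Oas, Slfn), whose counts are uncertain because reads that map to several places were not counted.

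Rsad2, the antiviral enzyme viperin (chromosome 12, 26442746 to 26456452), had the largest difference among genes with more than 3 counts in each group. It stood at 0.374, 1.22 and 1.05 CPM in primary microglia without LPS and at 4511, 3666 and 4413 CPM with LPS, and in BV2 cells at 4.67 and 5.93 CPM and 25.4 and 34.6 CPM. It rose in both, from a lower start and to a higher end in primary microglia, without overlap between any of the 4 groups. The difference was 9.65 ± 0.51 (adjusted p = 6.22e-14). Cmpk2, its neighbour on the chromosome and a nucleotide kinase, rose from 2.32 ± 1.56 to 4459 ± 421 CPM and from 1.91 ± 0.374 to 14.9 ± 0.757 CPM (difference 8.0 ± 0.72). Oasl1, a relative of the sensors that make oligoadenylate, had a single count in primary microglia without LPS and 434, 482 and 459.8 CPM with LPS, and went from 10.6 and 9.23 CPM to 39.2 and 33.7 CPM in BV2 cells (adjusted p = 5.47e-14).

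Ifit2, which binds foreign RNA, stood at 10.8, 7.75 and 7.02 CPM without LPS and 2555, 2343 and 2924 CPM with LPS in primary microglia, and at 4.04 and 3.63 CPM and 2.68 and 6.18 CPM in BV2 cells, where the groups overlapped. Its difference was 8.0 ± 0.54 (adjusted p = 1.27e-11). Isg15, a ubiquitin-like protein whose promoter is printed above, stood at 0.374, 2.86 and 0.351 CPM and then 701, 749 and 739 CPM in primary microglia and at 2.18 and 2.64 CPM and then 11.0 and 13.5 CPM in BV2 cells. It rose in both, and the difference was 6.94 ± 0.69 (adjusted p = 2.91e-08). Ifit3 went from 1.12, 3.67 and 1.05 CPM to 849, 826 and 947 CPM in primary microglia and from 0.622 and 0.659 CPM to 2.34 and 5.62 CPM in BV2 cells, a difference of 6.22 ± 1.22 (adjusted p = 0.0007).

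Ifit1 had a single count in primary microglia without LPS and 1391, 1239 and 1457 CPM with LPS, a ratio of 10883 (95% counting interval 1953 to 429903). BV2 cells went from 1.12 ± 0.181 to 13.5 ± 2.01 CPM, and the difference was called (adjusted p = 6.65e-08). Usp18, which trims ISG15 from proteins and restrains the interferon receptor, had a difference of 6.2 ± 0.44, and Bst2, the virus-tethering protein tetherin, one of 2.81 ± 0.22. Slfn2, a regulator of immune cell quiescence, showed the smallest called difference of the list, 1.18 ± 0.20, with rises of 4.33 ± 0.13 in primary microglia and 3.15 ± 0.16 in BV2 cells.

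Other genes named for the size of their difference included 3 outside the lists. Phf11b, a zinc finger gene, stood at 2.99, 1.22 and 1.40 CPM and then 143, 165 and 181 CPM in primary microglia and at 5.29 and 5.93 CPM and then 3.68 and 4.21 CPM in BV2 cells, a difference of 6.90 ± 0.47 (adjusted p = 9.85e-12). Fam26f, a membrane channel relative, went from 0.887 ± 0.575 to 84.9 ± 11.9 CPM in primary microglia and stood at 1.27 ± 0.401 and 0.810 ± 0.748 CPM in BV2 cells (difference 7.24 ± 0.98). Cd72, an inhibitory receptor, differed by 6.42 ± 0.66; for none of these 3 was the BV2 response called. Serpina3g, a protease inhibitor of the acute-phase list, and Ifit1bl1, of the antiviral list, had 0 counts in primary microglia without LPS and 105 ± 13 and 39.2 ± 7.02 CPM with LPS, at least 280.4-fold and 104-fold higher. BV2 cells without LPS held 1 count of each, and the differences were called (adjusted p = 0.0166 and 0.0451). Neither was called without BV2 replicate 2 without LPS, which held that count (adjusted p = 1 for both), and Ifit1bl1 was not called without any of 6 other libraries either (adjusted p 0.0574 to 0.0756).

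All 17 tested interferon-inducible GTPases rose in primary microglia and 4 rose in BV2 cells, with 5 called above 0 for the difference and 0 below. DESeq2 called 14 of the 17 above 0 and limma-voom 17. Of the 17, 8 had at most 3 counts in each BV2 group, so no difference could be measured there. The DESeq2 and limma-voom counts include genes of that kind, since only 9 could be measured in both cell types. Ifi47, a GTPase that attacks the vacuoles of parasites, stood at 0.374, 0 and 1.05 CPM and then 291, 275 and 362 CPM in primary microglia and at 0.933 and 1.98 CPM and then 3.35 and 2.25 CPM in BV2 cells. Its difference was 8.24 ± 0.95 (adjusted p = 2.81e-07), and those of Igtp and Irgm1, of the same family, were 5.88 ± 0.38 and 4.07 ± 0.27.

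**Figure D3:**
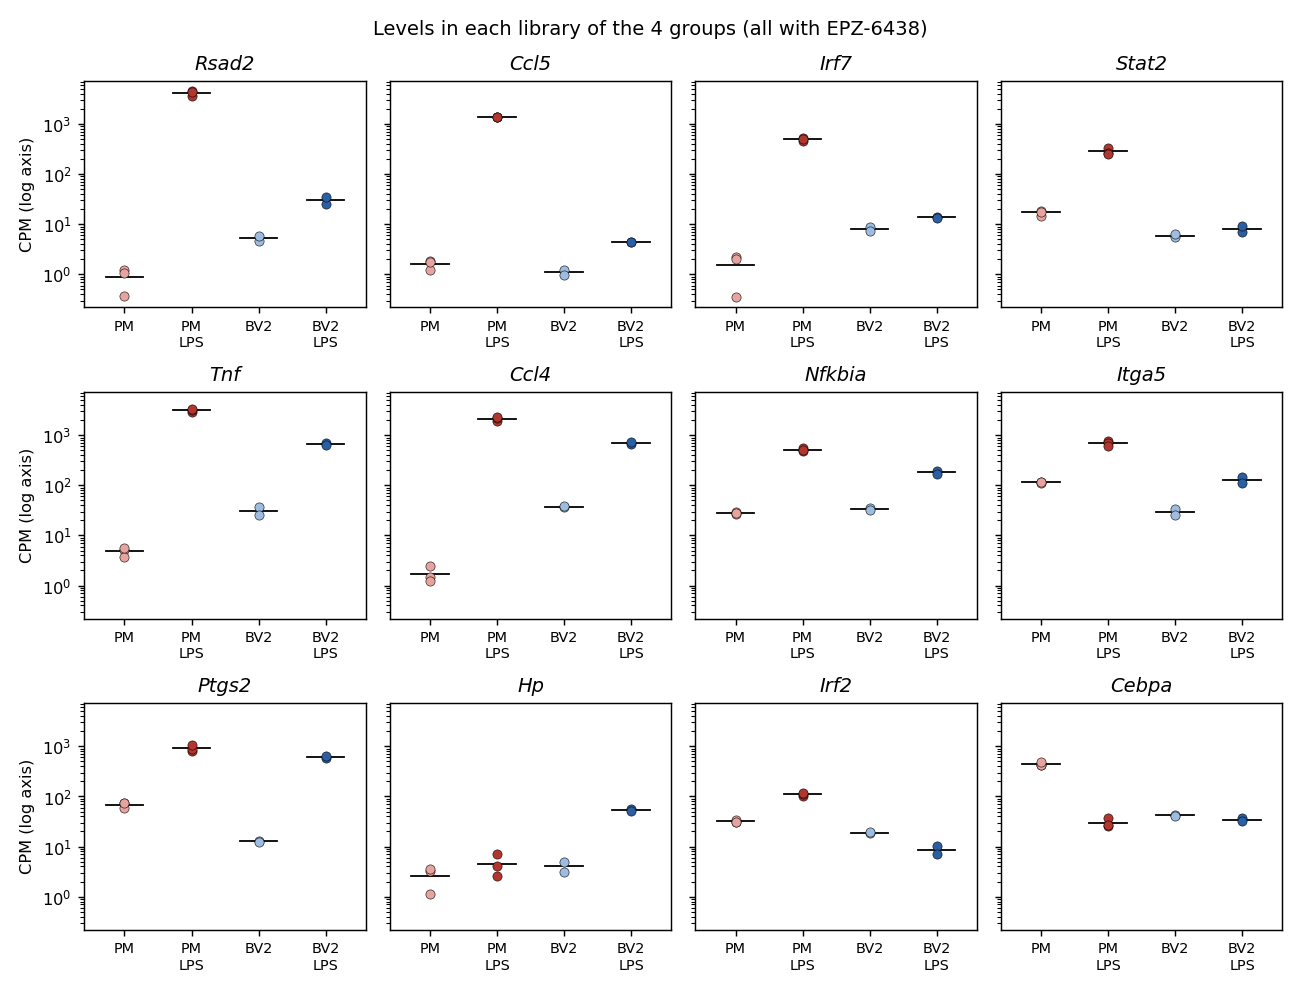
CPM of 12 genes in each library (log axis), with a bar at each group's mean; PM is primary microglia (n = 3 per group) and BV2 the line (n = 2 per group), and all groups had EPZ-6438. In the top row the primary libraries with LPS stand far above all others. Itga5 rises in both cell types, and Ptgs2 and Hp rise further in BV2. Irf2 moves in opposite directions and Cebpa falls in primary microglia.

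Of 26 tested cytokines 21 rose in primary microglia and 11 in BV2 cells, and the difference was called above 0 for 7 and below 0 for 2. Tnf, the cytokine TNF-alpha (chromosome 17, 35199381 to 35202007), stood at 5.23, 3.67 and 5.62 CPM without LPS and 2964, 3178 and 3307 CPM with LPS in primary microglia. In the line the values were 37.0 and 25.4 CPM and 706 and 627 CPM. BV2 libraries lay above primary libraries without LPS and below them with LPS, and the difference was 4.91 ± 0.26 (adjusted p = 6.52e-14). With limma-voom 16 cytokines were called above 0.

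Il1b, interleukin-1 beta, overlapped between the cells without LPS, at 3.36, 2.86 and 1.75 CPM in primary microglia and 3.11 and 2.31 CPM in BV2 cells, and reached 4311, 4631 and 4943 CPM and 601 and 659 CPM with LPS. The BV2 response was large, 7.83 ± 0.22 on the log2 scale, and the primary response larger, by 2.92 ± 0.45 (adjusted p = 1.84e-05). Il1rn, the antagonist of the interleukin-1 receptor, differed by 4.18 ± 0.25. Il15, a cytokine that sustains lymphocytes, stood at 5.98, 3.27 and 3.16 CPM and then 154, 158 and 175 CPM in primary microglia and at 3.11 and 1.32 CPM and then 1.34 and 2.53 CPM in BV2 cells, with overlap in BV2 cells and a difference of 5.45 ± 0.65 (adjusted p = 3.73e-07).

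For 4 well-known LPS targets the difference was not called in the main fit. Il1a, interleukin-1 alpha, rose by 9.50 ± 0.18 in primary microglia and 7.63 ± 0.28 in BV2 cells (difference 1.88 ± 0.67, 95% interval 0.49 to 3.26, adjusted p = 0.0862). Il6 stood at 0, 0.816 and 0.702 CPM and then 638, 640.3 and 772 CPM in primary microglia. In the line it went from 0 counts to 15.1 and 22.8 CPM, at least 39.4-fold higher, so that the difference was at most 5.10 (adjusted p = 0.942). That bound takes the primary level without LPS as exact, although it rests on few counts.

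Cxcl2, a neutrophil chemokine whose promoter is printed above, stood at 0.374, 0.816 and 0.702 CPM and then 1136, 1255 and 1296 CPM in primary microglia. The BV2 level went from 0 counts to 206 and 237 CPM, at least 461-fold higher, which leaves a difference of at most 2.08 (adjusted p = 0.574). Here too the bound takes the low primary level without LPS as exact. Nos2, which makes nitric oxide on induction, had a single count in primary microglia without LPS and 199, 94.5 and 99.0 CPM with LPS, and went from 0 counts to 5.36 and 5.34 CPM in BV2 cells, at least 11.1-fold higher; its BV2 response was not called in the fit (adjusted p = 0.129), nor was the difference (adjusted p = 1). Il10 did not pass the filter on low counts and was not tested.

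Of 10 CC chemokines 9 rose in primary microglia and 7 in BV2 cells, and 7 were called above 0 for the difference and 0 below, with a median of 5.63. Ccl5, which attracts T cells (chromosome 11, 83525778 to 83530518), stood at 1.87, 1.22 and 1.75 CPM without LPS and 1375, 1359.8 and 1365 CPM with LPS in primary microglia, and at 1.24 and 0.989 CPM and 4.35 and 4.50 CPM in BV2 cells. The groups without LPS overlapped and the BV2 rise was called but stayed within a few CPM; the difference was 7.73 ± 0.78 (adjusted p = 2.12e-08). Ccl2, which attracts monocytes, is related in sequence to Ccl12, and how far reads are shared between them was not measured. Ccl2 rose from 2.60 ± 0.884 to 803 ± 80.3 CPM and from 72.6 ± 4.27 to 414 ± 114 CPM (difference 5.72 ± 0.30). Ccl3 differed by 5.55 ± 0.24.

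Of 17 chemokine, complement and purine receptors 4 were called above 0 and 0 below (23.5% called, against 12.2% of all tested genes). The median was 0.72, and limma-voom called 8 above 0. C5ar1, the receptor of complement C5a, stood at 52.7, 47.3 and 51.9 CPM and then 243, 298 and 287 CPM in primary microglia and at 146 and 131 CPM and then 275 and 248 CPM in BV2 cells. It rose in both, and the BV2 libraries without LPS stood above the primary ones while the groups with LPS overlapped; the difference was 1.53 ± 0.19 (adjusted p = 7.82e-07). P2ry6, a receptor that drives phagocytosis, rose in primary microglia with a BV2 response that was not called (difference 1.59 ± 0.30). Adora2b, an adenosine receptor, rose in both and differed by 3.14 ± 0.57.

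Among 11 CXC chemokines 1 was called above 0 and 0 below, while DESeq2 called 5 above 0 and limma-voom 6, and 6 had at most 3 counts in each BV2 group. With 5 measurable in both cell types, the limma-voom count includes at least 1 that was not. The called gene was Cxcl10, which attracts T cells and whose promoter is printed above. It had 0 counts in primary microglia without LPS and stood at 674, 412 and 446 CPM with LPS, at least 1357-fold higher. In BV2 cells it rose from 1.24 and 1.65 CPM to 86.0 and 96.4 CPM, so that the difference was at least 4.43 (adjusted p = 0.00264).

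MHC class I presentation was the one list in which every tested gene was called, 17 of 17 above 0, with a median of 2.37. All 17 rose in primary microglia and 2 rose in BV2 cells. With library size only 12 were called above 0. Tap1, which pumps peptides into the endoplasmic reticulum, stood at 12.7, 16.3 and 16.1 CPM without LPS and 346, 377 and 371 CPM with LPS in primary microglia. BV2 cells stood at 10.9 and 11.2 CPM and 12.7 and 12.4 CPM, and the difference was 4.41 ± 0.28 (adjusted p = 2.29e-12). Nlrc5, the master activator of these genes, differed by 4.55 ± 0.22.

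The size of the difference varied within the list. B2m, the light chain, rose from 462 ± 51.5 to 1210.2 ± 123 CPM in primary microglia and stood at 261 ± 6.75 and 293 ± 67.2 CPM in BV2 cells, a difference of 1.22 ± 0.20. The heavy chain genes H2-K1 and H2-D1, whose families share sequence, differed by 1.11 ± 0.19 and 0.97 ± 0.19. With library size only B2m, H2-K1 and H2-D1 were not called (adjusted p = 0.0607, 0.0955 and 0.171). The immunoproteasome subunits Psmb8 and Psmb9 differed by 3.32 ± 0.44 and 4.33 ± 0.34, with BV2 log2 fold changes of -0.45 and -0.42 that were not called.

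Of 21 costimulatory and adhesion molecules 11 were called above 0 and 0 below (median 1.16). Cd40, the receptor through which T cells activate antigen-presenting cells, stood at 0.747, 0.408 and 0.702 CPM without LPS and 875, 940.4 and 939 CPM with LPS in primary microglia, and at 12.8 and 8.90 CPM and 139 and 136 CPM in BV2 cells. It rose in both and began higher in BV2 cells, and the difference was 6.77 ± 0.38 (adjusted p = 1.8e-13). Clec4e, the receptor Mincle for mycobacterial glycolipid, followed the same order, with a difference of 5.40 ± 0.32.

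Inflammasome and cell death genes showed 10 of 15 called above 0 and 0 below (median 1.72). Nlrp3, the sensor of the inflammasome, rose in both, from 8.32 ± 1.54 to 544 ± 125 CPM and from 22.3 ± 0.686 to 140.1 ± 7.38 CPM, with a difference of 3.38 ± 0.28 (adjusted p = 1.12e-09). Casp1, the protease it activates, stood at 14.2, 12.2 and 16.1 CPM and then 138, 121 and 153 CPM in primary microglia and at 15.6 and 17.8 CPM and then 12.7 and 22.8 CPM in BV2 cells, where the groups overlapped. Its difference was 3.15 ± 0.31. Aim2, a sensor of cytosolic DNA, differed by 2.16 ± 0.25. Casp4, which binds LPS inside the cell, differed by 2.76 ± 0.38, and Gsdmd, the pore-forming protein cut by both proteases, by 1.39 ± 0.25.

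Of 16 effector enzymes 5 were called above 0 and 1 below. Irg1, which makes the antimicrobial metabolite itaconate, rose in both by a wide margin, 11.03 ± 0.18 in primary microglia and 8.14 ± 0.22 in BV2 cells, and the difference was 2.89 ± 0.45 (adjusted p = 2.84e-05). Cybb, the catalytic subunit of the phagocyte oxidase, rose from 239.9 ± 22.7 to 1727 ± 133 CPM and from 145 ± 7.40 to 413 ± 75.6 CPM (difference 1.34 ± 0.19), and Gch1, which makes a cofactor of nitric oxide synthase, differed by 2.93 ± 0.31. The enzymes of prostaglandin synthesis went in both directions. Ptgs2, cyclooxygenase 2 (chromosome 1, 150100031 to 150108227), stood at 75.1, 57.5 and 74.4 CPM without LPS and 798, 881 and 1046 CPM with LPS in primary microglia, and at 12.8 and 12.5 CPM and 582 and 652 CPM in BV2 cells. Its BV2 response was the larger, with a difference of -1.89 ± 0.23 (adjusted p = 6.51e-07), although primary libraries stood above BV2 libraries in both states. Ptges, the enzyme that acts after it to form prostaglandin E2, went from 6.73, 7.35 and 4.56 CPM to 595, 698 and 628 CPM in primary microglia and from 1.56 and 0.989 CPM to 3.68 and 3.09 CPM in BV2 cells, a difference of 5.33 ± 0.71 (adjusted p = 2.34e-06).

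**Figure D4:**
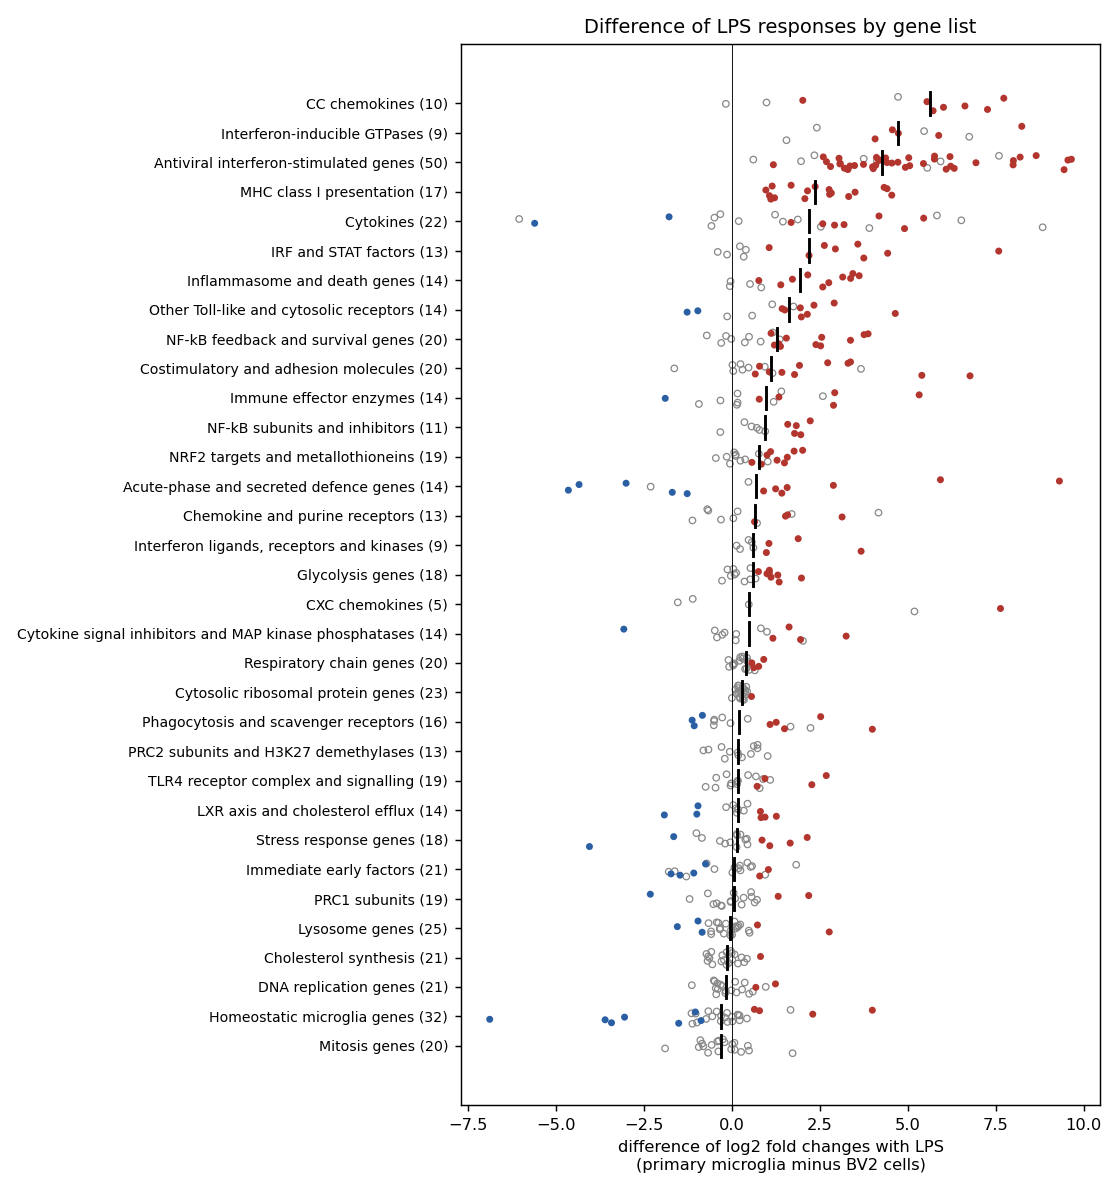
Difference of the log2 fold changes with LPS, primary microglia minus BV2 cells, for each gene of the lists with at least 5 genes measured in both cell types (number in brackets); filled red points are called above 0, filled blue points called below 0, open points not called, and black bars are medians. The antiviral, GTPase, CC chemokine and MHC class I lists lie far to the right, while lysosome, cholesterol and mitosis lists lie around 0.

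A few secreted and stress genes rose further in BV2 cells, although more called genes of those lists lay above 0 than below. Of 18 acute-phase and secreted defence genes 5 were called below 0 and 7 above. Hp, haptoglobin, which binds free haemoglobin (chromosome 8, 109575128 to 109579172), stood at 1.12, 3.27 and 3.51 CPM without LPS and 7.03, 4.14 and 2.54 CPM with LPS in primary microglia. The BV2 values were 3.11 and 4.94 CPM and 56.2 and 51.1 CPM. All libraries but the BV2 ones with LPS lay between 1.12 and 7.03 CPM, and the difference was -3.0 ± 0.59 (adjusted p = 0.00059).

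Several rises in BV2 cells began from 1 to 3 counts. Gdf15, a stress-induced cytokine, had a single count in BV2 cells without LPS and 11.7 and 8.99 CPM with LPS, a ratio of 64.0 (95% counting interval 11.1 to 2563), while primary microglia stood at 0.747, 1.22 and 1.40 CPM and 1.56, 0.955 and 1.13 CPM (adjusted p of the difference 0.000575). Gadd45a, a growth arrest gene, had 3 counts and then 10.0 and 8.71 CPM, a ratio of 19.4 (95% counting interval 6.34 to 96.7), against 10.8, 13.9 and 9.48 CPM and 12.1, 14 and 11.0 CPM in primary microglia (adjusted p = 1.88e-05). Lcn2, the iron-binding protein lipocalin 2, had a single count and then 46.5 and 52.8 CPM, a ratio of 312 (95% counting interval 55.6 to 12366), and rose by 3.61 ± 0.26 in primary microglia. Its difference (adjusted p = 0.00437) was not called without BV2 replicate 1 without LPS (adjusted p = 0.0597). The fitted difference of -4.34 became -6.61 without BV2 replicate 2 without LPS. Marco, a scavenger receptor for bacteria, went from 0 counts to 12.4 and 12.1 CPM in BV2 cells and from 33.8 ± 7.72 to 401 ± 59.9 CPM in primary microglia, so that the difference was -1.11 or further below 0. It was called with all libraries (adjusted p = 0.0156) but not without either of the BV2 replicates without LPS (adjusted p = 0.133 without replicate 1 and 0.113 without replicate 2).

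Other secreted genes had the larger rise in primary microglia. C3, the central complement component, rose from 55.9 ± 6.76 to 451 ± 44.1 CPM in primary microglia and from 20.6 ± 5.37 to 70.2 ± 6.30 CPM in BV2 cells (difference 1.25 ± 0.24, adjusted p = 0.000374). Plaur, the urokinase receptor, differed by 1.57 ± 0.23, and Plau, urokinase itself, by 1.42 ± 0.22, with a BV2 response that was not called.

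Osm, the cytokine oncostatin M, stood at 27.3, 24.1 and 23.2 CPM and 19.9, 22.3 and 19.5 CPM in primary microglia, where the groups did not overlap but the response was not called. In BV2 cells it rose from 13.4 and 11.9 CPM to 41.5 and 30.9 CPM, a difference of -1.78 ± 0.29 (adjusted p = 5.68e-05). Among 20 stress response genes 4 were called above 0 and 2 below, the latter being Gadd45a and Herpud1, which serves protein disposal at the endoplasmic reticulum (difference -1.65 ± 0.29). Gadd45b and Cdkn1a, both growth arrest genes, rose in both cell types and further in primary microglia (2.14 ± 0.29 and 1.66 ± 0.25). Among 23 immediate early factors 2 were called above 0 and 4 below, with a median of 0.08, where 8.65% and 3.54% of all tested genes were called. The count above 0 lies near that share. Jund, a subunit of the factor AP-1, differed by -1.47 ± 0.25, and Nr4a1, an orphan nuclear receptor induced by many stimuli, by -1.73 ± 0.42; both rose in BV2 cells while their primary responses were not called. Fosl2, another AP-1 subunit, was of the same kind (-1.08 ± 0.22), and Junb rose in both and further in primary microglia (1.04 ± 0.22).

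Most differences below 0 were falls in primary microglia. Arhgap19, a GTPase-activating protein gene (chromosome 19, 41766588 to 41802047), stood at 101, 90.6 and 90.5 CPM without LPS and 2.34, 4.14 and 2.83 CPM with LPS in primary microglia, and at 78.4 and 86.4 CPM and 53.9 and 59.3 CPM in BV2 cells. Neither pair of groups overlapped, but the BV2 response was not called (adjusted p = 0.0532), and the difference was -4.35 ± 0.27 (adjusted p = 1.53e-12). Il16, a chemoattractant for CD4 cells, fell from 10.4 ± 1.68 to 0.685 ± 0.439 CPM in primary microglia and stood at 21.8 ± 0.440 and 20.3 ± 2.95 CPM in BV2 cells (difference -3.81 ± 0.51). Rassf3, a Ras association domain gene, fell in both and further in primary microglia, from 67.1 ± 2.15 to 3.82 ± 0.419 CPM against 38.7 ± 1.13 to 22.8 ± 0.876 CPM (difference -3.37 ± 0.28).

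Abi3, a microglial regulator of the actin skeleton, stood at 24.3, 14.7 and 16.1 CPM and then 0.781, 1.27 and 1.13 CPM in primary microglia and at 19.9 and 23.4 CPM and then 11.7 and 14 CPM in BV2 cells, where the response was not called. Its difference was -3.30 ± 0.48 (adjusted p = 8.03e-06). For Tbc1d2, Hgf, Mnt, Fry and Arhgap27 the BV2 level was low in both states. Hgf, the hepatocyte growth factor, went from 52.2 ± 1.30 to 9.25 ± 1.61 CPM in primary microglia and stood at 0.641 ± 0.0263 and 1.23 ± 0.152 CPM in BV2 cells (difference -3.37 ± 0.76). Tbc1d2, a regulator of Rab GTPases, differed by -3.80 ± 0.77 and Mnt, an antagonist of MYC, by -3.31 ± 0.67. Fry differed by -3.20 ± 0.65 and Arhgap27 by -3.15 ± 0.94, and neither was called without BV2 replicate 1 with LPS (adjusted p = 0.0714 and 0.412). Arhgap27 was also not called without primary replicate 2 with LPS (adjusted p = 0.0559) or BV2 replicate 1 without LPS (adjusted p = 0.0789). BC021767 stood at 2.98 ± 1.68 CPM in primary microglia without LPS and had 0 counts with LPS, so that its difference was -3.0 or further below 0.

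Homeostatic microglia genes, which are known to fall on activation, showed 7 of 36 called below 0 and 4 above. Of all tested genes 3.54% were called below 0 and 8.65% above, so the 4 above lie near the background. In primary microglia 21 of the 36 fell and 5 rose, and in BV2 cells 8 fell and 2 rose. Cebpa, a transcription factor of myeloid cells (chromosome 7, 35119293 to 35121928), stood at 418, 419.6 and 481 CPM without LPS and 25.4, 36.6 and 26.9 CPM with LPS in primary microglia. The BV2 libraries stood at 43.5 and 40.2 CPM and 36.5 and 32.3 CPM, so primary microglia with LPS came down to about the BV2 level. The difference was -3.60 ± 0.23 (adjusted p = 2.74e-12).

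Rasgrp3, an activator of Ras, fell in both, from 15.8 ± 2.11 to 0.755 ± 0.108 CPM in primary microglia and from 70.4 ± 0.283 to 38 ± 8.70 CPM in BV2 cells, and fell further in the former (difference -3.42 ± 0.43, adjusted p = 9.35e-07). Lyl1, a transcription factor of blood cells, did the same, with a difference of -3.05 ± 0.40. Cnr2, the cannabinoid receptor 2, stood at 9.72, 16.3 and 18.6 CPM in primary microglia without LPS and had 0 counts in all 3 libraries with LPS. In BV2 cells it fell from 11.5 and 7.25 CPM to 3.35 and 2.81 CPM, so that the difference was -3.91 or further below 0 (adjusted p = 8.95e-05).

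Of the homeostatic list 4 genes were called above 0, Maf among them. Maf, a transcription factor of tissue macrophages, stood at 60.5, 52.2 and 56.9 CPM and then 161, 173 and 209 CPM in primary microglia and at 37.0 and 28.7 CPM and then 20.4 and 22.2 CPM in BV2 cells. It rose in primary microglia, its BV2 response was not called (adjusted p = 0.0764), and the difference was 2.30 ± 0.24 (adjusted p = 3.84e-08). The genes that follow belong to other lists. Ptprc, the leukocyte marker CD45, and Adgre1, the macrophage marker F4/80, both rose in primary microglia, with differences of 1.62 ± 0.20 and 1.18 ± 0.17. The difference was -1.92 ± 0.24 for Rxra, a nuclear receptor partner, and -0.99 ± 0.19 for Abca1, the cholesterol exporter, both of which fell in primary microglia. Fcgr3, an activating receptor for antibodies, differed by -1.07 ± 0.19.

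Only 22 genes (0.189% of those tested) were called in both cell types in opposite directions with a called difference. Of these 15 rose in primary microglia and fell in BV2 cells, and 7 did the reverse. The count was 7 without BV2 replicate 1 without LPS and also without BV2 replicate 2 with LPS, 11 without BV2 replicate 2 without LPS and 13 without primary replicate 2 without LPS. Fcgr1, the high-affinity receptor for antibodies, stood at 19.1, 13.5 and 14 CPM without LPS and 134, 147 and 166 CPM with LPS in primary microglia, and at 179 and 146 CPM and 106 and 89.1 CPM in BV2 cells. The log2 level in primary microglia minus that in BV2 cells was -3.38 ± 0.17 without LPS and 0.61 ± 0.15 with LPS, and the difference of responses was 4.00 ± 0.23 (adjusted p = 4.97e-13).

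Irf2, a repressor of interferon-stimulated genes, stood at 30.6, 34.3 and 31.2 CPM and then 100.4, 111 and 117 CPM in primary microglia. BV2 levels were 19.0 and 19.1 CPM and then 10.0 and 7.02 CPM, so that neither pair of groups overlapped and the directions were opposite. The difference was 2.95 ± 0.28 (adjusted p = 4.62e-09). Irf5, a factor downstream of MyD88, rose by 2.08 ± 0.13 in primary microglia and fell in BV2 cells with a log2 fold change of -0.55 ± 0.16 (difference 2.63 ± 0.20). Mapk14, the p38 kinase, was of the same kind, with a difference of 1.06 ± 0.21, as was Rin2, a regulator of endocytosis, with 3.06 ± 0.20. Bambi, a decoy receptor of the TGF-beta family, differed by 2.05 ± 0.33. Dab2, an endocytic adaptor, differed by 1.5 ± 0.18, and Xbp1, a factor of the unfolded protein response, by 1.08 ± 0.19.

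In the reverse sense, Fam46c, which adds adenosines to RNA ends, fell from 32.1, 35.9 and 30.9 CPM to 14.5, 13.4 and 11.0 CPM in primary microglia and rose from 2.18 and 2.64 CPM to 7.70 and 11.0 CPM in BV2 cells. Its difference was -3.31 ± 0.42 (adjusted p = 1.19e-06). Sowahc differed by -2.23 ± 0.28 and Hilpda, a protein of lipid droplets, by -1.59 ± 0.34. Amica1, an adhesion molecule of leukocytes, had 0 counts in primary microglia without LPS and 7 with LPS, against 45 and 14 in BV2 cells, so that the difference was at least 2.75 (adjusted p = 0.011). It was not called without primary replicate 2 with LPS (adjusted p = 0.122).

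A like response was taken to need more than a missed threshold: both responses called in the same direction and a 95% interval of the difference within -1 to 1. This held for 98 genes (0.843% of those tested), of which 55 rose and 43 fell. The count was 47 and 45 without BV2 replicates 1 and 2 without LPS, 64 without BV2 replicate 2 with LPS and 152 without primary replicate 1 with LPS. Itga5, the integrin alpha 5 chain, stood at 117, 113 and 117 CPM without LPS and 762, 713 and 613 CPM with LPS in primary microglia, and at 33.3 and 25.4 CPM and 144 and 110.1 CPM in BV2 cells. The levels differed throughout and both rose, with a difference of 0.48 ± 0.22 (95% interval 0.03 to 0.92). That interval lies within the bound but leaves out 0, on the side of a larger rise in primary microglia. The intervals were -0.55 to 0.50 for Dcbld2, a membrane receptor, -0.50 to 0.47 for Ppfibp2, a liprin, and -0.32 to 0.61 for Igsf6, an immunoglobulin superfamily gene. Among genes that fell, 4632428N05Rik, which encodes the checkpoint protein VISTA, went from 172, 160.0 and 178 CPM to 28.1, 38.5 and 30.0 CPM in primary microglia and from 67.8 and 59.0 CPM to 17.7 and 15.7 CPM in BV2 cells (difference -0.47 ± 0.24, 95% interval -0.96 to 0.02).

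Genes of the pathway itself were among the 98. Irak2, a kinase that prolongs the MyD88 signal, rose by 1.61 ± 0.13 in primary microglia and 1.76 ± 0.16 in BV2 cells, with an interval of -0.57 to 0.27. Syk, a kinase of immune receptors, had an interval of -0.19 to 0.89, and Il10ra, the receptor of interleukin 10, one of -0.21 to 0.86. Stat3, which carries that receptor's signal, rose by 0.91 ± 0.12 and 0.51 ± 0.15 (interval 0.01 to 0.79). Nfe2l2, which encodes NRF2, the regulator of the oxidative stress response, rose by 1.33 ± 0.12 and 1.14 ± 0.15 (interval -0.19 to 0.58).

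Of 20 NRF2 targets and metallothioneins 9 were called above 0 and 0 below (median 0.67), 11 rose in primary microglia and 3 rose in BV2 cells. Prdx1, a peroxidase, stood at 423, 427 and 491 CPM and then 1808, 1886 and 2067 CPM in primary microglia and at 834 and 821 CPM and then 798 and 961 CPM in BV2 cells, with a difference of 2.01 ± 0.17 (adjusted p = 9.92e-10). Slc7a11, the cystine transporter, rose in both, by 4.68 ± 0.14 and 3.58 ± 0.19, and differed by 1.10 ± 0.25. Txnrd1, thioredoxin reductase, differed by 1.5 ± 0.18, and Srxn1, which restores oxidised peroxidases, by 1.58 ± 0.20.

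Of 19 glycolysis genes 8 were called above 0 and 0 below (median 0.53), 11 rose in primary microglia and 2 in BV2 cells. Pgk1, phosphoglycerate kinase, was higher in BV2 cells throughout: it stood at 111, 107 and 117 CPM without LPS and 231, 272 and 252 CPM with LPS in primary microglia, and at 653 and 669 CPM and 682 and 735 CPM in BV2 cells, with a difference of 1.07 ± 0.17 (adjusted p = 3.16e-05). Slc16a3, the lactate exporter, differed by 1.98 ± 0.24, Ldha, lactate dehydrogenase, by 1.07 ± 0.19 and Slc2a1, the glucose transporter GLUT1, by 1.35 ± 0.23. Of 20 respiratory chain genes 4 were called above 0 and 0 below (20% called, against 12.2% of all tested genes). Among them Cycs, cytochrome c, differed by 0.91 ± 0.22.

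Against 12.2% of all tested genes called for the difference, the other lists lay on both sides. None of the 20 mitosis genes was called, and among 21 DNA replication genes 2 (9.52%) were called above 0; among these, Pcna, the sliding clamp of the replication fork, differed by 1.24 ± 0.22. Of 22 cholesterol synthesis genes 1 was called above 0 and 0 below (4.55%), of 25 lysosome genes 2 above and 3 below (20.0%), and of 16 genes of the LXR axis and cholesterol efflux 4 above and 3 below (43.8%). Atp6v0d2, a subunit of the proton pump, fell in primary microglia (difference -1.55 ± 0.29), and Lpl, lipoprotein lipase, differed by 0.95 ± 0.18. Ctsc, a lysosomal protease that activates others, had the largest difference of the lysosome list, 2.77 ± 0.20 (adjusted p = 2.81e-11). Of 19 phagocytosis and scavenger receptors 5 were called above 0 and 3 below (42.1%), and Fcer1g, the signalling chain of antibody receptors, differed by 1.26 ± 0.20.

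None of 14 tested PRC2 subunits and H3K27 demethylases was called, with a median of 0.18; with 12.2% of all tested genes called, a count of 0 in a list of this size lies near the background. Ezh2 stood at 17.2, 18.4 and 18.6 CPM without LPS and 17.6, 14.6 and 12.7 CPM with LPS in primary microglia. In the line the values were 46.7 and 46.1 CPM and 42.2 and 45.2 CPM, above every primary library in both states. Its difference was -0.20 ± 0.26 (95% interval -0.74 to 0.34, adjusted p = 0.782), and that of Kdm6b, a demethylase of the EZH2 mark, was 0.17 ± 0.62 (95% interval -1.11 to 1.45). Of 19 PRC1 subunits, the complex that reads the mark, 2 were called above 0 and 1 below (15.8%), which is also near the background. Pcgf5, a subunit of variant PRC1, rose from 10.8, 9.80 and 8.42 CPM to 51.2, 50.3 and 54.0 CPM in primary microglia and stood at 5.60 and 6.26 CPM and 4.35 and 9.27 CPM in BV2 cells, where the groups overlapped (difference 2.19 ± 0.41, adjusted p = 0.000304), and Phc2 differed by 1.32 ± 0.24.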

How the data were processed

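RNA-seq gene counts of 10 libraries were used. The values deposited by the authors are raw read counts per gene, made with CASAVA 1.8.2, Trimmomatic 0.33, STAR 2.5.1, mm10 and DESeq2, per the submitters' processing notes. The sources used here do not name the annotation behind the counts. The counts of the strand that holds the gene reads were taken, and the rows that name no gene (70.4% to 79.5% of the total per library) were left out. Reads that map to several places (7.64% to 11.8%) are not in the gene counts. Families of near-identical copies (Ifit, Oas, Slfn, Gbp, Irgm, H2) are therefore uncertain, and the related genes Ccl2 and Ccl12 may be.

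Genes were kept with edgeR's filterByExpr (minimum count 10, minimum total 15), scaled by TMM and fitted over 4 groups with edgeR 4.0.16 (glmQLFit, glmQLFTest, robust) in R 4.3.3, with the contrast of the 2 LPS responses and Benjamini-Hochberg adjustment over all tested genes. Errors after a log2 value are approximate standard errors, taken as the size of the value over the square root of the test's F statistic. The 95% intervals were built from them. For some genes with very large responses, such as Il1a and Irg1, the errors of the responses and of their difference do not combine. There the errors and intervals are rough. Errors after a CPM mean are SDs. Depth limits precision: the median half-width of the 95% interval of the difference was 0.774. A group at 0 was set to a floor of 3 counts over the group, and intervals on ratios cover counting error only. Bounds on a difference take the means of the other groups as exact and are not confidence limits. The fit was tested on simulated data of 11424 genes: 40.9%, 97.0% and 100% of genes with a true difference of 1, 2 and 3 were recovered, with 6 false calls. True differences were set in 66, 67 and 67 genes, all well above the floor in every group before the change. The shares therefore do not cover genes with a group near 0. Rises and falls were set in near-equal numbers and in few genes, so the false calls do not cover errors from scaling. Simulated counts took their spread from the fit itself.

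The members, lists and the rule for named genes were chosen with earlier results of these data known. The rule took the 12 largest called differences in each direction, the 5 largest bounds, the 3 largest opposite and 5 largest like responses, up to 3 members per list and direction with the smallest p, and a set of well-known LPS genes. Outside it, Irf5, Stat3, Irak2, Nfe2l2, Psmb8, Psmb9, B2m, Rin2, H2-K1, H2-D1, Ldha, Slc2a1, Usp18, Bst2, Slfn2, Slc7a11, Casp4, Syk, Il10ra, Mapk14 and Gsdmd were chosen after their values were seen. Replicates were compared by a chi-square test of their counts, and each pair differed by more than sampling noise. Alternatives were DESeq2 1.42.0, limma-voom (limma 3.58.1), other scalings and filters, unstranded counts, a replicate block, a length offset and leaving out libraries. A few genes that the rule named are not reported here.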

Additional observations from a re-analysis of the deposited data

Results flagged for a closer look

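The LPS responses of primary microglia and BV2 cells differed by the interaction test for 1418 genes, and 22 genes were called in opposite directions. Among the named genes of that second kind, the difference of log2 fold changes was 2.95 for Irf2 and 2.05 for Bambi, which rose in primary microglia and fell in BV2 cells, and 5.99 for Amica1, a fitted value that depends on the 0 counts of its primary control group. It was -3.31 for Fam46c, -2.23 for Sowahc and -1.59 for Hilpda, which moved the other way round.

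Reads counted on the strand opposite to genes were not used in the comparison. They made up 0.946% to 2.21% of stranded gene reads in primary microglia with LPS and 0.682% to 0.826% without LPS, against 1.06% to 1.07% and 0.935% to 1.15% in BV2 cells. Their part in the results was not tested.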

How the results depend on the processing

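Without 1 library at a time 1004 to 1923 genes were called for the difference, 733 to 1050 above 0 and 271 to 873 below 0, with 7 to 27 opposite and 45 to 152 like responses. Of the 159 named genes with a called difference, 137 stayed called without each library in turn, as did 786 of all 1418. Over every setting but the one without primary replicates 2 and 3 with LPS, 563 of the 1418 were called each time. With library size only, 701 genes were called (551 above and 150 below 0, 3 opposite and 4 like). Upper-quartile scaling called 668 below 0, DESeq2 gave 11 opposite and 60 like responses, and limma-voom called 16 cytokines above 0. Without 1 library the list counts ranged over 2 to 4 above 0 for TLR4 signalling, 4 to 7 above and 2 to 5 below for acute-phase genes, 2 to 5 above for homeostatic genes, 1 to 4 below for phagocytosis receptors, 1 to 5 below for lysosome genes and 1 to 4 above for the respiratory chain. The cause of these shifts was not tested.

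With limma-voom 4 named genes that the main fit did not call were called. Among named genes the sign turned only for 6 whose difference was not called. Dcbld2 was at 0.095 with library size only, 0.027 with unstranded counts, 0.106 with a length offset, 0.131 without primary replicates 2 and 3 with LPS and -0.641 to 0.435 without 1 library. Ppfibp2 was at 0.117 with library size only, 0.061 with a length offset, 0.005 without those 2 libraries and -0.460 to 0.313 without 1. Kdm6b was at -0.022 with upper-quartile scaling and -0.426 to 1.038 without 1 library, Igsf6 at -0.043 with upper-quartile scaling, Ezh2 at 0.052 without those 2 libraries, and Cxcl2 at 0.162 with limma-voom.

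The deviations of same-numbered libraries from their group means correlated at 0.234, -0.152 and 0.278 in primary microglia and 0.253 for both pairs in BV2 cells, and replicate numbers were treated as names without pairing. With a replicate block in each cell type 1684 genes were called, 1175 above and 509 below 0. Depth left a median half-width of 0.774 on the difference. That interval is not adjusted for the number of genes, so a call by adjusted p needed a larger difference at median precision.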
